A study of Gallus gallus with 24 samples.

Results

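The sexes were compared in the ileum of challenged broilers, gene by gene, for genes that lie neither on the Z nor on the W chromosome. Male chickens carry a pair of Z chromosomes, whereas females carry Z and W, so RNA from W genes tells the sexes apart. The labels give no sex. A bird was taken as female when the FPKM values of its W genes (fragments scaled for gene length and library size) summed to more than 100, and as male otherwise. Of the 24 birds, the 18 challenged ones were compared, 8 males and 10 females. Of the 25339 genes in the table, 12805 had a mean of at least 1 FPKM over these 18 birds and lay off Z and W: 12655 on numbered autosomes, 118 on unplaced scaffolds and 32 on the mitochondrial genome.

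The birds were Arbor Acres broilers aged 14 d, from a study of whether honokiol and magnolol, a pair of isomeric phenols from magnolia bark, protect the gut against *Salmonella pullorum*. SPH birds (3 males, 3 females) ate 300 mg/kg honokiol, SPM birds (2 males, 4 females) ate 300 mg/kg magnolol, and SP birds (3 males, 3 females) ate the basal diet. All 3 groups were given 0.5 mL of the bacterium by mouth at 5 d of age. CTL birds, which were given sterile buffer and reared apart, were 6 females and 0 males, so they were kept out of the comparison and are set beside it; challenge and rearing differ there too. One chick was taken from each replicate cage.

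The summed W level ran between 1.83 and 3.26 FPKM in males and between 512 and 605 FPKM in challenged females, so the male nearest to the limit of 100 was at 3.26 FPKM and the nearest female at 512 FPKM. The sexes were chosen by these values, which are given as a description. Z genes, which the rule did not use, were set against them. The median log2 level of Z genes minus that of numbered autosomes was -0.05 ± 0.05 in males and -0.50 ± 0.04 in females (SD, n = 8 and 10), and the sexes did not overlap. The difference was 0.45 on the log2 scale, or 1.36-fold (two-sided exact permutation of sex within groups, p = 0.000167, the smallest that the 6000 arrangements allow). The libraries held 14861134 to 19435410 reads on genes (median 16355828). The labels call the tissue ileum in one field and mention retina in another. Markers of intestine were abundant in the 18 birds, with means of 5302 FPKM for APOA1, the main apolipoprotein of high-density particles, 3975 for the fatty acid carrier FABP1, 1732 for the goblet cell product CLCA1, 599 for the microvillus protein VIL1 and 367 for the cadherin CDH17.

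Birds lack the chromosome-wide silencing with which female mammals balance X dosage, and Z genes are in general more highly expressed in males. Autosomal genes are present in the same dose in both sexes, and differences between the sexes in somatic tissues are then usually sought in the targets of sex steroids and of growth hormone signalling. The ileum is the last segment of the small intestine, where absorptive enterocytes, goblet cells and a large population of lymphocytes share the mucosa above layers of smooth muscle and enteric nerves.

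Across autosomal genes the sexes were close to each other. limma was fitted to log2(FPKM + 0.1) with group as a term, p values were adjusted by Benjamini-Hochberg over the 12805 genes, and calling a gene took an adjusted p below 0.05 and a log2 difference (males minus females) beyond 0.5 in either direction. Of the 12805 genes 2 were called, which is 0.0156% of those tested. ENSGALG00000052108 rose and GTSF1 fell in males, so each direction held 0.00781%. ENSGALG00000052108 passed the filter on its mean only through the males, so a difference was needed for it to be tested. One more gene, ENSGALG00000014589, had an adjusted p under 0.05 with a difference smaller than the fold limit, which makes 0.0234% at any fold. In these 3 genes, 0.0234% of those tested, the FPKM values of the 8 males and the 10 females did not overlap. The fourth smallest adjusted p from limma was 0.892. At an unadjusted p under 0.05 there were 696 genes (5.44%), 312 higher (2.44%) and 384 lower (3%) in males. With the fold limit kept and p unadjusted there were 123 genes (0.961%), 48 higher (0.375%) and 75 lower (0.586%). The exact permutation test of each gene, with sex permuted within groups, gave 693 genes (5.41%) at the same limit. Of the genes tested, 153 reached a mean of 1 FPKM in females only and 34 in males only. As the filter admitted more genes low in males, the unadjusted counts by direction are values and not a result.

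The choice of the genes over which p is adjusted changed the count. When all 13436 genes with a mean of at least 1 FPKM were fitted, Z and W included, 294 genes (2.19%) were called, among them 251 of 595 Z genes (42.2%) and 36 of 36 W genes (100%). The W genes had set the sexes, so their calls followed from the rule and are no result. The many small p values of the sex chromosomes, those of W among them, eased the adjustment, and 7 autosomal genes passed, 3 higher and 4 lower in males. Those of the 7 that were not called over genes off Z and W alone had an adjusted p of 0.892 there (limma). Beside ENSGALG00000052108 and GTSF1 these were SOCS2 (adjusted p = 0.0206, limma) and ENSGALG00000011190 (0.0303), both higher, and ENSGALG00000026776 (0.0199), FGGY (0.0300) and a microRNA gene, ENSGALG00000018286 (0.0343), all lower. The last, on chromosome 2, lies outside the rule for named genes and was named after its values were seen. It had 1.49 to 5.52 FPKM in males (median 3.01) and 3.81 to 13.8 FPKM in challenged females (median 6.52). It had as few as 2 reads in a bird. CTL females were at 1.52 to 5.47 FPKM (median 3.003), within the range of the males.

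**Figure D1:**
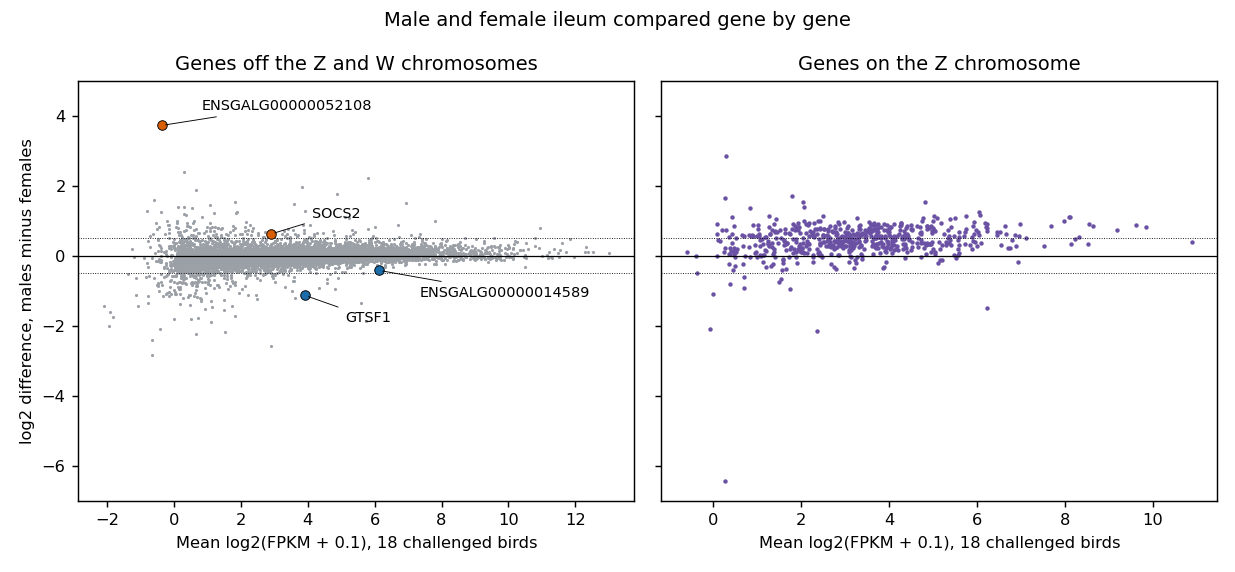
Each point is a gene, with its mean log2(FPKM + 0.1) over the 18 challenged birds on the x axis and the log2 difference, males minus females, on the y axis, for genes off Z and W on the left and Z genes on the right. Solid lines mark 0 and dotted lines the fold limits of 0.5 and -0.5. Autosomal points lie around 0 (median -0.01) with ENSGALG00000052108 at 3.73, whereas the Z genes lie around 0.47.

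The estimates were also narrow. The median standard error of a gene's log2 difference was 0.113, and the median difference was -0.01, with quartiles of -0.10 and 0.07. The 95% interval lay within a 2-fold change in either direction for 12077 genes (94.3%) and within a log2 difference of 0.5 for 9677 genes (75.6%). For the other genes the interval reached past that bound. Estimates beyond 2-fold were found for 83 genes, 26 higher and 57 lower in males. The filter on the mean admitted 153 genes that reached 1 FPKM in females only and 34 in males only. The 2 directions are therefore given as values and not as a result. Of the 83 genes, 51 had 0 reads in some bird, the median standard error was 0.781, the ranges of the sexes overlapped in 81, and 2 were called.

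The median difference by autosome ran from -0.02 on chromosome 15 to 0.02 on chromosome 16. These chromosomes carried 335 and 74 tested genes. The Z median was 0.47 in the same fit, with 90.3% of its genes higher in males, against 46.0% of the genes on numbered autosomes. The mitochondrial genome, which is inherited from the mother and is present in every cell of both sexes, had a median of 0.20. All 13 of its protein-coding genes were higher in males, at 0.06 to 0.28, and ATP8 alone among the 13 had an unadjusted p under 0.05 (332 ± 55.9 FPKM in males, 303 ± 114 FPKM in females; adjusted p = 0.892, limma). As they lie on 1 genome, their count is not a count of independent differences. Of the 32 mitochondrial genes tested, 27 were higher within SP (median 0.38), 15 within SPH (-0.01) and 20 within SPM (0.09). The share of all reads that came from the mitochondrial genome was 3.48 ± 0.531% in males and 3.50 ± 0.749% in females. Adjusted for group, the difference was 0.11 percentage points, males minus females (exact permutation p = 0.679).

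**Figure D2:**
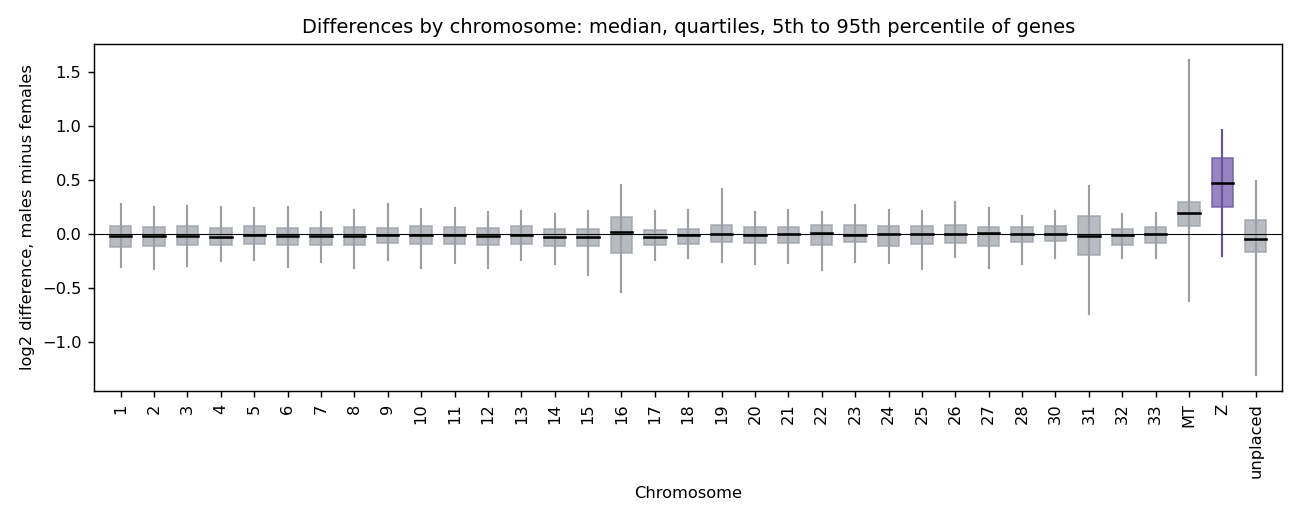
Log2 difference, males minus females, of the genes on each chromosome in the fit over all chromosomes except that W is not drawn: the line is the median, the box the quartiles and the whisker the 5th to 95th percentile of genes. The Z median of 0.47 lies apart from the autosomal medians of -0.02 to 0.02.

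ENSGALG00000052108 was the gene with the largest difference. It lies on chromosome 1 from 32731631 to 32734564 on the minus strand, in the positions of the deposited table, has no symbol, and is annotated there with the reverse transcriptase, integrase and RNase H domains of retroviruses and related elements. In males it had 3.001, 3.08 and 3.63 FPKM in the SP group, 1.96, 2.62 and 4.46 FPKM in the SPH group, and 4.12 and 3.07 FPKM in the SPM group. In challenged females it ran between 0.018 and 0.506 FPKM with a median of 0.145. Every male was thus above every female. The log2 difference was 3.73 (SE 0.317, adjusted p = 1.52e-05, limma; exact permutation p = 0.000167), and within the groups it was 4.02 in SP, 3.37 in SPH and 3.82 in SPM birds. The 6 CTL females were at 0.021 to 0.626 FPKM and so also below every male.

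The level rested on few reads, 1 to 203 per bird, and the gene passed the filter on its mean only through the males, so a difference was needed for it to be tested. The table holds 58 entries with the same set of domains, 17 on W, 1 on Z and 40 elsewhere, and ENSGALG00000052108 was the only one tested. Reads of such copies can be split among them by the counting, so its level is uncertain in that respect. Of the W copies, 2 had a mean of at least 1 FPKM. An entry of 6999 bases without an Ensembl identifier was at 0 FPKM in males and 4.67 FPKM in females, and ENSGALG00000046681 was at 0.0105 FPKM in males and 2.68 FPKM in females. How far these copies exchange reads with ENSGALG00000052108 was not tested.

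GTSF1 (ENSGALG00000001109) was the gene that fell. It lies on chromosome 27 from 3444203 to 3455470 on the plus strand and encodes gametocyte specific factor 1, a small zinc finger protein which in mouse and fruit fly acts with PIWI proteins in the silencing of transposons by piRNAs. Males had 7.39, 5.38 and 9.42 FPKM in the SP group, 8.06, 14.1 and 10.8 FPKM in the SPH group, and 9.58 and 15.5 FPKM in the SPM group. Challenged females had 15.8, 22.1 and 16.9 FPKM in the SP group, 23.9, 23.4 and 24.1 FPKM in the SPH group, and 23.4, 25.1, 17.6 and 26.3 FPKM in the SPM group. The highest male, in SPM, lay just below the lowest female, in SP. The mean was 10.02 ± 3.38 FPKM in males and 21.9 ± 3.70 FPKM in females, with a log2 difference of -1.13 (SE 0.138, adjusted p = 0.00166, limma; exact permutation p = 0.000167). Within groups the difference was -1.31 in SP, -1.15 in SPH and -0.90 in SPM birds. CTL females had 14.6 to 25.4 FPKM, and the lowest of them lay below the highest challenged male. Another pair of entries carry the same domain, TRMT13 at 7.37 FPKM in males and 7.65 FPKM in females, and ENSGALG00000035365 at 4.46 FPKM in males and 4.95 FPKM in females.

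ENSGALG00000014589, on chromosome 28 from 2309232 to 2317220 on the plus strand, has no symbol and is annotated with A20-type and AN1-type zinc fingers. Males had between 52.6 and 67.1 FPKM (median 58.7), challenged females between 70.6 and 95.8 FPKM (median 79.7) and CTL females between 73.4 and 86.8 FPKM (median 78.3). All 16 females were above all 8 males, with counts of 1635 to 3069 reads in the challenged birds. The difference was small, -0.42 on the log2 scale (SE 0.0639, adjusted p = 0.0220, limma), or 59.8 ± 4.60 FPKM in males and 80.6 ± 7.48 FPKM in females, and of the same sign within SP (-0.41), SPH (-0.29) and SPM (-0.56). The adjusted p lay between 0.0105 and 0.129 when 1 bird was left out and was above 0.05 in 11 of the 18 runs, those without SP replicate 1, 3, 5 or 6, SPH replicate 1, 2 or 3, or SPM replicate 1, 2, 4 or 6. The same pair of domains is annotated in ZFAND6 on chromosome 10, at 55.6 FPKM in males and 52.2 FPKM in females, and in ZFAND5 on the Z chromosome, at 20.8 FPKM in males and 12.2 FPKM in females.

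Of the next genes by p, SOCS2 was the one with a place in growth hormone signalling. SOCS2 is induced by growth hormone through STAT5 and limits the signal of its receptor, and mice without it grow large. Males had 8.31, 10.2 and 13.4 FPKM in the SP group, 6.38, 13.9 and 8.44 FPKM in the SPH group, and 10.003 and 8.97 FPKM in the SPM group. Challenged females were at 4.27 to 7.82 FPKM with a median of 6.61, and CTL females at 4.05 to 7.44 FPKM. A single male, SPH replicate 1 at 6.38 FPKM, lay within the range of the challenged females, and the other 7 lay above it. The log2 difference was 0.63 (SE 0.147, adjusted p = 0.892 over genes off Z and W, limma; exact permutation p = 0.0012), with 0.51 for SP birds, 0.48 for SPH birds and 0.93 for SPM birds. Counts were 55 to 186 reads.

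Among the other genes named for their small p, all with an adjusted p of 0.892 (limma), COQ9, a lipid-binding protein of coenzyme Q synthesis, was at 30.3 to 43.7 FPKM in males (mean 37.8) and 42.4 to 52.3 FPKM in females (mean 45.7), a difference of -0.27 (SE 0.061). A single male, at 43.7 FPKM, lay within the female range. ENSGALG00000026776, annotated with a histidine phosphatase domain, averaged 6.48 ± 0.905 FPKM in males and 9.38 ± 1.80 FPKM in females (-0.51, SE 0.119). FGGY, a carbohydrate kinase, averaged 3.69 ± 0.921 FPKM in males and 5.40 ± 1.02 FPKM in females (-0.58, SE 0.142). The ranges of both genes overlapped.

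Of those on the higher side, ENSGALG00000011190, a member of the PLAC8 family, was abundant. Males had 218 to 462 FPKM (median 319) and challenged females 72.1 to 268 FPKM (median 210), a difference of 0.99 (SE 0.242), which was 0.40 in SP, 1.56 in SPH and 1.00 in SPM birds. CTL females, at 76.7 to 365 FPKM, spanned most of both ranges. TSPAN15, a tetraspanin that partners the membrane protease ADAM10, averaged 65.5 ± 7.58 FPKM in males and 55.3 ± 8.87 FPKM in females (0.29, SE 0.075). TCN2, the carrier that delivers vitamin B12 to tissues, averaged 68.8 ± 10.5 FPKM in males and 53.7 ± 10.1 FPKM in females (0.41, SE 0.103).

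**Figure D3:**
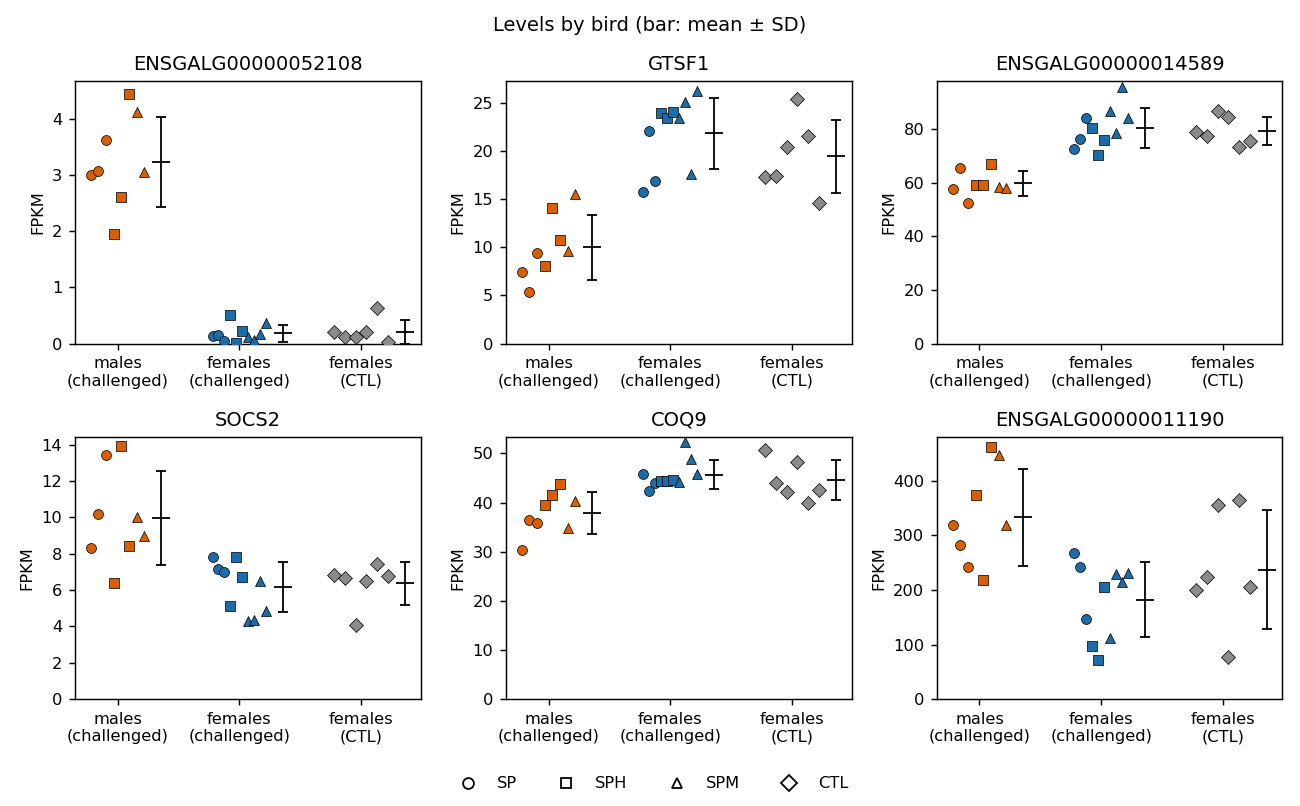
FPKM of 6 genes in each bird, with challenged males left of challenged females and CTL females at the right; symbols give the group and bars the mean ± SD (n = 8, 10 and 6). In the upper row the challenged males and females do not overlap, and in the lower row they do.

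The oestrogen and progesterone receptors were scarcely expressed in this tissue. The oestrogen receptor ESR1 averaged 0.312 FPKM in males and 0.445 FPKM in females, and the progesterone receptor PGR 0.450 FPKM in males and 0.514 FPKM in females. Both were below the filter and were not tested across genes, and their exact permutation p values were 0.214 for ESR1 and 0.511 for PGR. ESR2 was at 0.199 FPKM in males and 0.215 FPKM in females, and the oestrogen-forming aromatase CYP19A1 was listed at 0 in every challenged bird. Of the 18 tested genes of the sex steroid and gonadal list, 0 were called, beside 0.0156% of all genes tested. In males 8 were higher and 10 lower, and the median was -0.02, against -0.01 over all genes tested. SRD5A1, a 5-alpha reductase that converts testosterone to dihydrotestosterone, was the member with an unadjusted p under 0.05, at 2.27 ± 0.658 FPKM in males and 3.32 ± 0.851 FPKM in challenged females (-0.54, adjusted p = 0.892, limma). CTL females were at 1.43 to 3.32 FPKM. Their median of 2.18 FPKM was near that of males (2.17 FPKM) and below that of challenged females (3.21 FPKM). PGRMC1, the most abundant member, was at 214 ± 29.8 FPKM in males and 208 ± 49.96 FPKM in females.

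In the growth hormone and insulin-like growth factor list, 0 of 18 genes were called, beside 0.0156% of all genes tested. In males 8 were higher and 10 lower, and the median was -0.02. The growth hormone receptor GHR lies on Z and was at 4.48 ± 0.944 FPKM in males and 4.29 ± 0.728 FPKM in females, a log2 difference of 0.08 (exact permutation p = 0.482). SOCS2 and CISH, both STAT5 targets that restrain cytokine signalling, and IGFBP2, a carrier of insulin-like growth factors, had an unadjusted p under 0.05. CISH was at 38.3 ± 3.65 FPKM in males and 34.8 ± 4.26 FPKM in females (0.16), and IGFBP2 at 7.57 ± 2.16 FPKM in males and 10.3 ± 2.12 FPKM in females (-0.45). EIF4EBP1, a repressor of translation and the most abundant of the list, was at 129 ± 15.4 FPKM in males and 123 ± 13.5 FPKM in females.

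The lists of absorptive cells leaned to higher values in males, with 0 genes called against a background of 0.0156%. All 19 tested genes of the enterocyte brush border list were higher in males, as were 5897 of all 12805 genes tested. The list's median log2 difference was 0.24. Of the 19 genes, 2 had an unadjusted p under 0.05 in limma, as did 2.44% of all genes on the higher side. SLC15A1, the peptide transporter PEPT1, was at 202 ± 70.4 FPKM in males and 145 ± 53.3 FPKM in females (0.54), and CDH17 at 416 ± 75.3 FPKM in males and 328 ± 75.2 FPKM in females (0.35). The SLC15A1 median was 198 FPKM in males, 133 FPKM in challenged females and 186 FPKM in CTL females. For CDH17 the medians were 408, 333 and 318 FPKM in the same order. The aminopeptidase ANPEP, the most abundant member, was at 1153 ± 235 FPKM in males and 1026 ± 290 FPKM in females (0.25). In the lipid absorption and bile acid list 21 of 23 genes were higher, with a median of 0.24. In limma, 4 of the 23 had an unadjusted p under 0.05, as did 2.44% of all genes on the higher side. They were AGPAT2 of glycerolipid synthesis, SAR1B of chylomicron export, the lipid droplet protein CIDEC and the bile acid receptor NR1H4. Their exact permutation p was 0.015 for AGPAT2, 0.0417 for SAR1B, 0.0593 for CIDEC and 0.0538 for NR1H4. AGPAT2 was at 207 ± 35.9 FPKM in males and 166 ± 33.6 FPKM in females (0.36), and APOA1, the most abundant, at 5604 ± 997 FPKM in males and 5060 ± 1768 FPKM in females (0.25). These genes move together from bird to bird, so the count of members is not a count of independent differences.

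By group, given as values with no test of the difference between groups, the brush border list was as follows. Within SP birds its median was 0.66 with 19 of 19 genes higher in males, within SPH birds it was 0.11 with 13 higher, and within SPM birds it was -0.08 with 7 higher. The mean of the list in each bird, relative to the 18 birds on the log2 scale, was -0.10, 0.37 and 0.29 in SP males and -0.36, -0.75 and -0.38 in SP females. In SPH birds it was -0.06, 0.00 and 0.21 in males and 0.04, -0.37 and 0.25 in females, and the sexes overlapped. In SPM birds it was -0.13 and 0.36 in males and 0.29, 0.36, 0.14 and -0.16 in females. The lipid list had a median of 0.53 for SP, of 0.07 for SPH and of -0.11 for SPM birds.

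Lymphocyte and dividing-cell genes also differed in sign among the groups. The proliferation list, of 25 genes of DNA replication and mitosis, had 0 higher in males within SP (median -0.46), 25 higher within SPH (0.37) and 24 higher within SPM (0.27), and its median over the 18 birds was 0.05. The B cell and plasma cell list had a median of -0.83 within SP, 0.15 within SPH and 0.19 within SPM, and -0.04 over the 18 birds. In this list 0 of 15 genes were called, beside 0.0156% of all genes tested. JCHAIN, the joining chain of secreted IgA and its most abundant member, differed by -1.94 within SP and 1.78 within SPH, and over all birds was at 135 ± 90.5 FPKM in males and 161 ± 171 FPKM in females. The mean of the B cell list was 0.89, 0.07 and -0.13 in SP males and 0.44, 1.76 and 1.31 in SP females. These overlapped. The proliferation means were 0.14, -0.26 and 0.21 in SP males and 0.52, 0.47 and 0.38 in SP females. They did not overlap, nor did the brush border and lipid means within SP. The T cell list was at a median of -0.01 (9 of 21 higher), and CD3D, part of the T cell receptor complex, was at 107 ± 21.2 FPKM in males and 107 ± 26.9 FPKM in females. In bulk tissue, fewer cells of a type and less RNA per cell cannot be told apart, and the part of cell makeup in these lists was not tested beyond a fit with the T cell, B cell and smooth muscle means as covariates, in which the brush border median was 0.13 and the lipid median 0.14.

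Whether the sex difference of a gene differed among SP, SPH and SPM was tested as an interaction. At an adjusted p under 0.05 there were 0 genes (0%), with a smallest adjusted p of 0.131 in limma and 0.144 in limma-voom, which also gave 0. At an unadjusted p under 0.05 there were 1563 genes (12.2%) in limma and 1596 in limma-voom. The sex difference over the groups together had 696 genes (5.44%) at that limit in limma. The adjusted count was 4 when SPH replicate 1 was left out, 1 when SPM replicate 5 was left out and 0 when any of the other birds was. For JCHAIN the interaction had an unadjusted p of 0.00245 and an adjusted p of 0.209 (limma). With 2 or 3 birds of a sex in most groups, differences within a group are values of those birds.

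**Figure D4:**
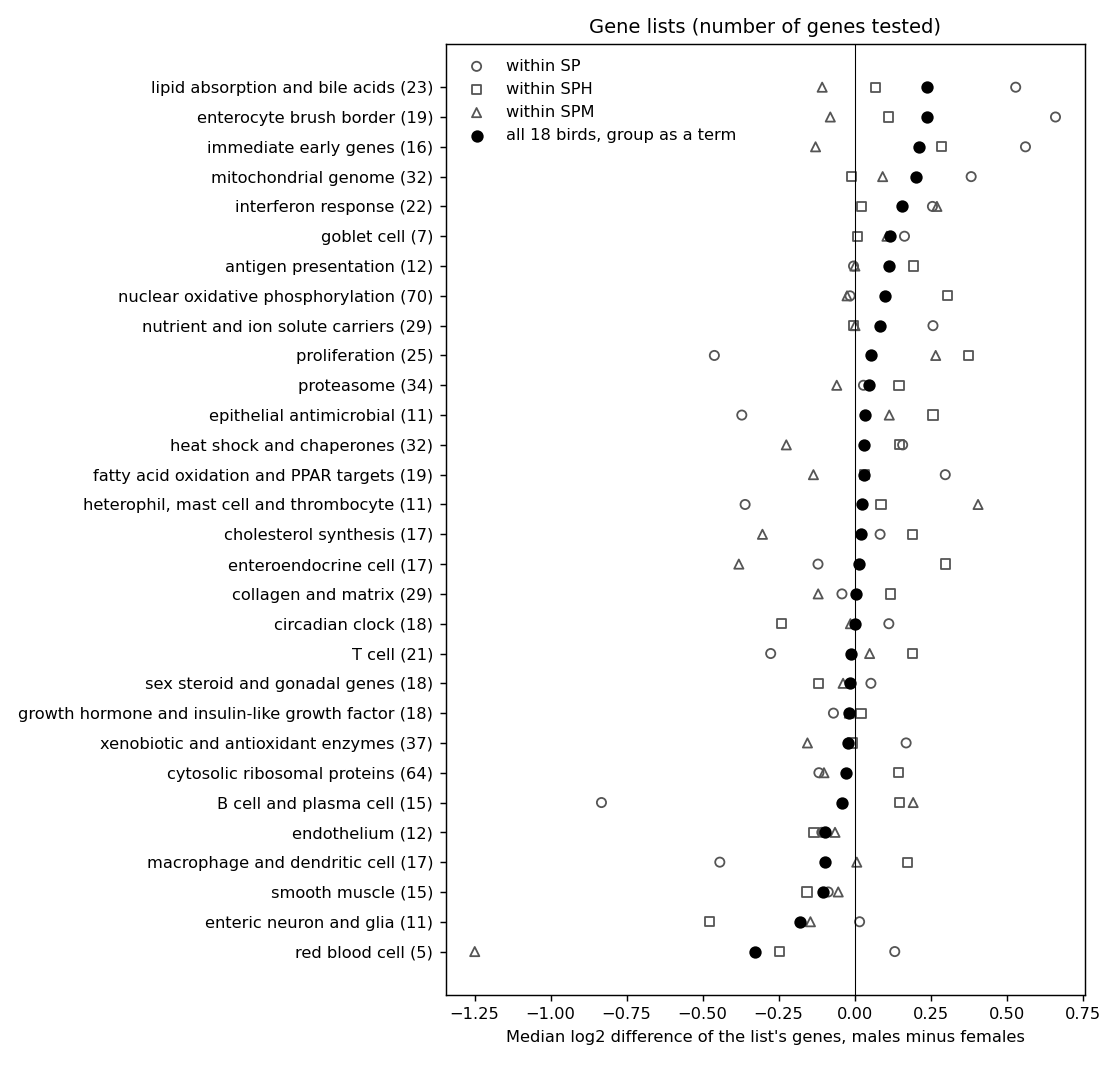
Median log2 difference, males minus females, of the genes in each list with at least 5 genes tested: filled points are the fit of all 18 birds with group as a term, and open symbols the differences of means within SP, SPH and SPM. The brush border list is at 0.24 over all birds and at 0.66, 0.11 and -0.08 within the groups, and the proliferation list at -0.46, 0.37 and 0.27.

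Interferon response genes were higher in males in 21 of 22 cases, as were 5897 of all 12805 genes tested. Their median was 0.15 and 0 were called, beside 0.0156% of all genes tested. As in the absorptive lists, the count of members is not a count of independent differences. OASL, the 2'-5' oligoadenylate synthetase-like antiviral protein, was at 211 ± 56.4 FPKM in males and 156 ± 46.5 FPKM in females (0.47, unadjusted p = 0.00977, adjusted p = 0.892, limma), and IFI35 at 114 ± 13.0 FPKM in males and 102 ± 9.96 FPKM in females (0.17). IFI6, the most abundant, spread widely, at 68.0 to 794 FPKM in males and 162 to 429 FPKM in females. The list's median was 0.26 within SP, 0.02 within SPH and 0.27 within SPM, with 18, 11 and 21 of the 22 genes higher. The means of the list by bird overlapped between the sexes in SP and SPH. In SPM the males were at 0.399 and 0.0952, and the lower of them was nearly level with the highest female (0.0946).

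The remaining lists of cell types and cellular machinery held 0 called genes each, beside 0.0156% of all genes tested. Of all 12805 genes tested, 5897 were higher in males. Nuclear oxidative phosphorylation had 60 of 70 genes higher at a median of 0.10, with 66 higher within SPH, 34 within SP and 26 within SPM. SDHA, a subunit of respiratory complex II, was at 124 ± 12.0 FPKM in males and 105 ± 14.6 FPKM in females (0.25), and cytochrome c, CYCS, at 196 ± 29.7 FPKM in males and 154 ± 34.9 FPKM in females (0.35). The proteasome list had 30 of 34 higher with a median of 0.05, and cytosolic ribosomal proteins 15 of 64 higher with a median of -0.03. Both leans differed among the groups. Of the proteasome genes 19 were higher within SP, 31 within SPH and 7 within SPM. For ribosomal proteins the counts were 5, 59 and 6 in the same order, with medians of -0.12, 0.14 and -0.10. With quantile normalization the proteasome median was -0.01, that of nuclear oxidative phosphorylation 0.02 and that of ribosomal proteins -0.11, so that the sign of the proteasome lean depended on the scaling.

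Among lists of the gut wall, smooth muscle had 2 of 15 genes higher in males and a median of -0.10, endothelium 3 of 12 and -0.10, and enteric neurons and glia 3 of 11 and -0.18, while collagen and matrix had 15 of 29 and 0.00. Within SP the enteric neuron and glia list had 6 of 11 genes higher and a median of 0.02. The smallest p in the smooth muscle, endothelium and enteric neuron lists was that of NEFL, a neurofilament, at 1.99 ± 0.406 FPKM in males and 2.59 ± 0.543 FPKM in females (-0.33), followed by VIP, the neuropeptide of enteric nerves, at 16.5 ± 4.06 FPKM in males and 22.2 ± 6.84 FPKM in females (-0.37). The NEFL median was 2.03 FPKM in males, 2.61 FPKM in challenged females and 1.90 FPKM in CTL females. For VIP the medians were 15.7, 20.6 and 20.8 FPKM in the same order. ACTG2, enteric smooth muscle actin, was at 482 ± 130 FPKM in males and 488 ± 112 FPKM in females. The goblet cell list had 6 of 7 genes higher (median 0.12), with CLCA1 at 2008 ± 896 FPKM in males and 1512 ± 774 FPKM in females (0.37, SE 0.410).

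The leading variation among autosomal genes did not separate the sexes. On the first principal component of the 18 birds, with 15.7% of the variance, the mean score was 0.981 in males and -0.785 in females (exact permutation p = 0.588, adjusted over 3 components 0.7002). On the second, with 13.0%, the means were 8.67 in males and -6.94 in females (exact permutation p = 0.105, adjusted 0.316), and males and females overlapped. On the third, with 9.59%, the exact permutation p was 0.7002. Males had fewer genes with any read, 18201 ± 168 against 18470 ± 223 in females (all chromosomes; exact permutation p = 0.0128). The difference adjusted for group was -282 genes, males minus females. The 149 W genes, whose summed level was near 0 in males, are part of the number, and their share of it was not tested.

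**Figure D5:**
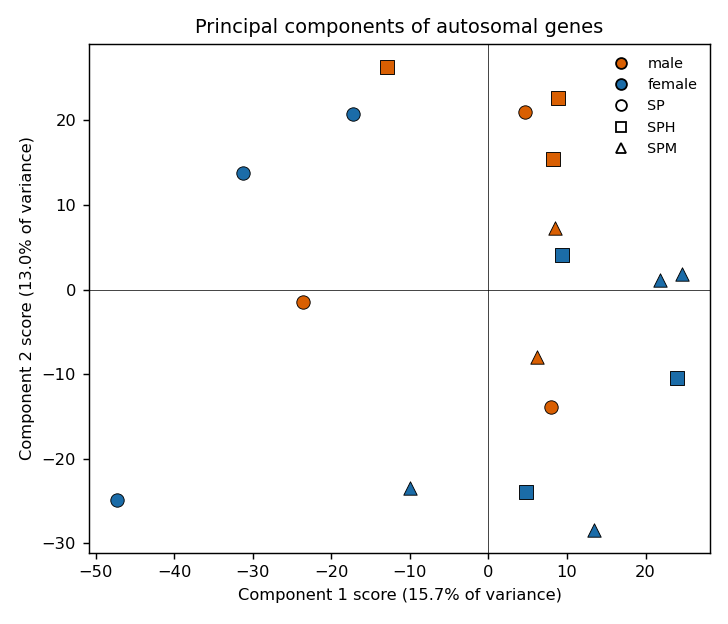
Scores of the 18 challenged birds on the first and second principal components of genes off Z and W, with 15.7% and 13.0% of the variance; colour gives the sex and shape the group. Males and females overlap on both axes.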

How the data were processed

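Total RNA of 24 ileum samples was sequenced. The authors deposited 1 table of FPKM values with gene length, position and domain annotation for 25339 genes and 24 birds. The methods name NEBNext Ultra libraries, the labels a TruSeq kit. The submitters' processing notes list Bowtie 0.12.2 and the builds GRCg6a and mm8 with no role, so the build behind the positions is not stated. Each FPKM gave whole reads for all 440917 values above 0 (largest deviation 7.25e-05 reads, tolerance 0.001).

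The values log2(FPKM + 0.1) entered limma 3.58.1 (R 4.3.3) with an intensity trend, terms for group and sex, and Benjamini-Hochberg adjustment. Fold changes are on that scale and understate changes of low genes. The filter was a mean of at least 1 FPKM. Just inside it was ENSGALG00000026161 (1.0005 FPKM) and just outside MMP16 (0.9999). By it, 11105 of the 23910 genes off Z and W were not tested. Single values were tested by exact permutation of sex within groups. Each bird came from its own cage, and p values measure the spread between birds.

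The sexes, the comparison and the 31 gene lists were chosen with earlier results of these data known. Lists were written from general knowledge and are given as counts and medians. The genes named were called genes, else the 5 with the smallest p in each direction, the most abundant member of lists, and ESR1 and PGR. One further gene of the rule is not reported here. Other list members were named for an unadjusted p under 0.05 in limma, after their values were seen. Alternatives were other pseudocounts, filters, scalings, weights, covariates, the replicate block, single groups, leaving out each bird, and, chosen after seeing the data, limma-voom 3.58.1 on the recovered reads. Scripts were tested on simulated data. No sequence is shown, as no sequence file was used here.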

Additional observations from a re-analysis of the deposited data

Results flagged for a closer look

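Among 42 groups of birds checked for 1 bird far from the rest, 3 were found, and chance gives about 1 in 20. ENSGALG00000052108 was at 0.626 FPKM in CTL replicate 5, against a median of 0.157 in the 6 CTL females, and this bird was still below every challenged male. SOCS2 was at 4.051 FPKM in CTL replicate 3, against a CTL median of 6.73. The mitochondrial share of reads was 5.26% in the female SPM replicate 6, against a median of 3.32% in the 10 challenged females.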

How the results depend on the processing

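The count of 2 called genes was 2 or 3 under other pseudocounts, filters, scalings, weights and covariates, without a group term, with all 24 birds and by limma-voom, and it was 2, with both genes shared, in each of the 18 runs without 1 bird (range 2 to 2). It was 7 with p adjusted over all chromosomes, 123 with an unadjusted p and the fold limit, 0 within SP, 5 within SPH and 0 within SPM. The 5 in SPH did not include either gene. CTL birds include 0 males, so adding them with group as a term could change only the variance and not the difference between the sexes. The replicate number as a block left 1 gene, as GTSF1 had an adjusted p of 0.0846 (limma). Over all genes together, correlations of same-numbered birds lay around 0 (18 pairs, r -0.25 to 0.22, median -0.01). Whether the numbers pair birds across groups is not stated, and a link in single genes was not tested. The interaction count of 0 was 1563 unadjusted and 0 to 4 without 1 bird. Of 1066 recomputed single-gene values 1055 had the same call and direction or were called in neither fit (92 of these differed in sign, uncalled), 7 lost a call, 4 gained one and 0 reversed one. Most of the values belong to genes uncalled in the main fit, so the 1055 say little about the 2 called genes. All 7 losses were of those 2 genes. The median of all genes shifted by less than 0.1 under other scalings. The cause of these changes was not tested. With 8 males and 10 females, the 95% interval lay within a log2 size of 0.25 for 29.6% of genes.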

Other observations

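Genes annotated with retroviral or reverse transcriptase domains were looked at after their values were seen. Among them, ENSGALG00000052108 passed the filter only through the males, so the counts below are values and not a test of such genes. Of the 11 tested off Z and W, 7 were higher in males. Of the 11, 1 was called, higher in males as were 0.00781% of all genes tested. In limma, 5 of the 11 had an unadjusted p under 0.05, as did 5.44% of all genes tested. Beside ENSGALG00000052108 these 5 were ENSGALG00000052072, at 7.13 ± 2.38 FPKM in males and 4.399 ± 1.91 FPKM in females, ENSGALG00000053921, at 21.3 ± 6.63 FPKM in males and 16.0 ± 5.87 FPKM in females, an entry without an Ensembl identifier on chromosome 11, at 2.08 ± 1.21 FPKM in males and 1.01 ± 0.568 FPKM in females, and ENSGALG00000049027, at 61.2 ± 8.78 FPKM in males and 72.6 ± 10.5 FPKM in females. TERT, the reverse transcriptase of telomerase, was at 2.89 ± 0.596 FPKM in males and 3.25 ± 0.675 FPKM in females. All but the called gene had ranges that overlapped between the sexes. Such genes belong to multicopy families, and reads shared with copies on Z or W were not tested.

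A further entry with a retroviral gag domain and no Ensembl identifier, on chromosome 1 from 88498661 to 88500688, lay below the filter of 1 FPKM and was called only when the filter was set at 0.1 FPKM or left out. It was at 0 to 0.436 FPKM in males (median 0.059), 0.359 to 3.16 FPKM in challenged females (median 1.21) and 0.240 to 1.35 FPKM in CTL females, a log2 difference of -2.96 (exact permutation p = 0.000167; adjusted p = 0.00711 at the lower filter, limma). It was named after its values were seen.

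Some uncalled genes ranged widely among birds. ENSGALG00000021451 on chromosome 11, with a short chain dehydrogenase domain, was at 3.87 to 96.2 FPKM in males and 53.7 to 158 FPKM in challenged females. Its median was 45.5 FPKM in males, 94.5 FPKM in challenged females and 91.6 FPKM in CTL females. The neighbours on chromosome 1, ENSGALG00000054795 and ENSGALG00000053074, were at 0 to 1.58 and 0.426 to 14.5 FPKM in males, and at 0 to 9.68 and 2.27 to 28.8 FPKM in challenged females. Their medians were 0 and 1.21 FPKM in males, 3.09 and 5.43 FPKM in challenged females, and 0.108 and 2.77 FPKM in CTL females. ENSGALG00000054795 passed the filter on its mean only through the females. ASPA on chromosome 19, which splits N-acetylaspartate, was at 24.4 ± 5.92 FPKM in males and 13.4 ± 5.01 FPKM in females, and APLN, the ligand of the apelin receptor, at 6.204 ± 2.31 FPKM in males and 4.11 ± 1.95 FPKM in females. The ASPA median was 24.4 FPKM in males, 14.0 FPKM in challenged females and 20.3 FPKM in CTL females. For APLN the medians were 6.22, 3.63 and 3.93 FPKM in the same order. All 5 genes had an adjusted p of 0.892 (limma) and were named after their values were seen.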
